A study of Mus musculus with 6 samples.

Results

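The aminoacyl-tRNA synthetases, the enzymes that load amino acids onto transfer RNAs, were followed in mouse splenic germinal centre B cells with and without a Uchl1 transgene. Members were chosen by gene symbol, with earlier results of these data known. The rule took every symbol made of 1 capital letter and "ars", with or without a closing 1 or 2, plus Eprs, Farsa, Farsb and the scaffold proteins Aimp1 and Aimp2. This gave 37 genes of the 18193 measured, each read by its probe set of highest mean. The ImHABCL6/Uchl1 group (3 arrays) came from mice carrying the ImHABCL6 allele together with transgenic Uchl1, and the ImHABCL6 group (3 arrays) from mice with the ImHABCL6 allele alone. Both groups therefore share deregulated BCL6, the repressor that defines germinal centre B cells, and no group without that allele was measured. All mice had been immunised with sheep red blood cells, and the cells were taken from spleen with magnetic beads. The promoter of the Uchl1 transgene, the number of founder lines and the ages of the mice are not stated in the labels. Affymetrix mouse 430 2.0 arrays were used, every value is a log2 level of a probe set, and 3 arrays per group limit the precision of every difference.

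Each synthetase recognises a particular amino acid and its transfer RNAs and joins them, so that the ribosome receives correctly charged tRNA. Cells keep separate nuclear-encoded sets for the cytosol and for mitochondria, and several cytosolic enzymes are bound to scaffold proteins in the multi-synthetase complex. Many cytosolic synthetase genes are known targets of ATF4, the transcription factor of the amino acid response, and germinal centre B cells, which divide rapidly, have a high demand for protein synthesis. The members were grouped as multi-synthetase complex with its scaffolds (9 genes), free cytosolic enzymes (12 genes) and mitochondrial enzymes (16 genes).

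Uchl1, a deubiquitinating enzyme, averaged 5.95 ± 0.08 in the ImHABCL6/Uchl1 arrays and 5.01 ± 0.01 in the ImHABCL6 arrays (SD, n = 3 each) without overlap, so the labelled genotype was visible in every array. Of 12 listed B-cell and germinal centre markers, 10 were measured, and they averaged 10.64 to 11.17 in ImHABCL6/Uchl1 arrays and 10.77 to 10.80 in ImHABCL6 arrays. Red-cell markers were also high, with 11 of 14 measured and means of 9.76, 11.66 and 11.11 in ImHABCL6/Uchl1 replicates 1 to 3, against 11.28, 11.82 and 12.26 in the ImHABCL6 arrays. All 11 were lower in the ImHABCL6/Uchl1 mean. T-cell markers (5.22 to 5.62 in ImHABCL6/Uchl1, 5.39 to 5.52 in ImHABCL6) and myeloid markers (5.36 to 5.90 in ImHABCL6/Uchl1, 5.15 to 5.42 in ImHABCL6) had overlapping means, as had platelet markers (8.07 to 9.15 in ImHABCL6/Uchl1, 8.38 to 9.15 in ImHABCL6) and plasma cell markers (8.55 to 8.77 in ImHABCL6/Uchl1, 8.49 to 8.81 in ImHABCL6), while the myeloid lysozyme Lyz2 read 8.89, 8.13 and 10.55 in ImHABCL6/Uchl1 arrays and 8.75, 8.11 and 7.30 in ImHABCL6 arrays. Red-cell marker RNA was thus measured in all 6 arrays, and in such bulk samples fewer cells of a type and less RNA per cell cannot be told apart.

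The synthetases lay mostly a little lower with the transgene, but the shift came largely from a single array, and no member passed the test over all genes. Of the 37 genes, 30 were lower and 7 higher in the mean of the ImHABCL6/Uchl1 arrays, where 49.4% of all genes were lower. The median log2 difference of the members was -0.17, against 0.0029 over all genes and -0.06 over the 9096 genes above the median level, of which 61.6% were lower. Differences ran from -0.49 (Nars2) to 0.11 (Qars), and no member differed by 1.5-fold or more, a size that 2.86% of all genes reached downward and 0.22% upward. In limma's moderated test with Benjamini-Hochberg adjustment over all 18193 genes, 0 members had an adjusted p under 0.05. The smallest adjusted p of a member was 0.854. Of all genes 0% passed (smallest adjusted p 0.638), so Uchl1 did not pass either, although its groups did not overlap. At an unadjusted p under 0.05, 2 members were lower (Nars2 and Cars) and 0 higher, where 3.85% of all genes, and 6.6% of those above the median level, were lower and 1.09% of all genes higher. The 3 arrays of one group all lay below those of the other for 4 members (Nars2, Cars, Hars and Aars), and above for 0, where 5.49% and 3.95% of all genes did so. The 4 genes are 10.8% of the members, close to the 8.6% separated downward among genes above the median level, where 35 of the 37 members lie.

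**Figure D1:**
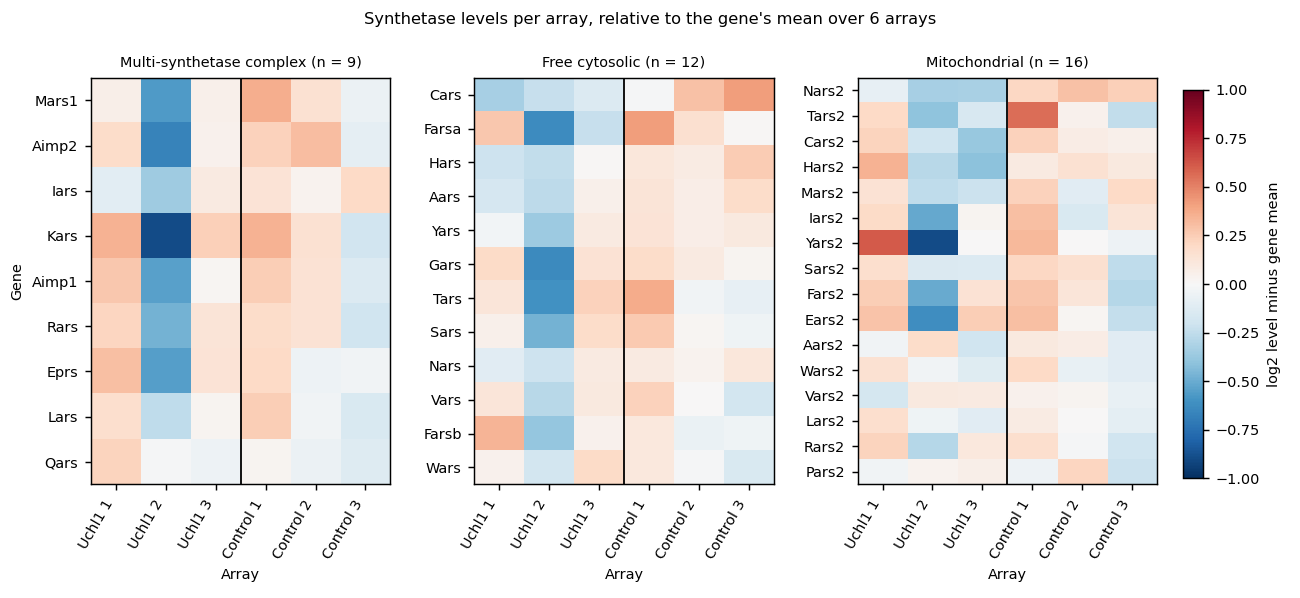
Log2 level of each of the 37 genes in each array minus that gene's mean over the 6 arrays (colour, log2 units), with ImHABCL6/Uchl1 arrays (Uchl1 1 to 3) left of ImHABCL6 arrays (Control 1 to 3) and a panel per class. The second column, ImHABCL6/Uchl1 replicate 2, is blue for most genes and is the lowest array for 27 of 37.

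ImHABCL6/Uchl1 replicate 2 was the lowest of the 6 arrays for 27 of the 37 synthetases, or 73%, where it was lowest for 47.3% of the genes above the median level and 28% of all genes. It was lowest for 8 of 9 complex genes, 11 of 12 free cytosolic genes and 8 of 16 mitochondrial genes. Set against the mean of the other 5 arrays, the array was lower for 34 of 37 members and for 6732 of the 9096 genes above the median level. On the log2 scale the array's median distance from that mean was -0.40 for members and -0.23 for those genes. Without it, 17 of 37 members were lower in the transgenic group, beside 48% of all genes, and the members' median difference was 0.02. The array also had the narrowest spread of values, with an SD over probe sets of 2.29 against 2.39 to 2.45 in the other arrays and an upper quartile of 7.51 against 7.62 to 7.73. After quantile normalization, which gives all arrays the same distribution, it was still lowest for 17 of 37 members (45.9%) and for 27.5% of the genes above the median level. In that setting 25 members were lower with a median of -0.09, where 47.6% of all genes were lower. Without ImHABCL6 replicate 1, the array that was highest for 15 members, the median was -0.07 with 22 members lower, beside 48.5% of all genes.

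The same array lay at the edge of some cell-type markers, close to the next array. Its B-cell and germinal centre mean was the lowest of the 6 arrays (10.64, next ImHABCL6/Uchl1 replicate 3 at 10.74). Its T-cell mean was the highest (5.62, next replicate 3 of that group at 5.52), as was its platelet mean, level with ImHABCL6 replicate 2 (both 9.15). ImHABCL6/Uchl1 replicate 1 lay further from the others. Its B-cell and germinal centre mean was the highest (11.17, others 10.64 to 10.80), and its red-cell (9.76), T-cell (5.22) and platelet (8.07) means were the lowest. The part of these differences in the synthetase values was not tested.

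The size of this low value differed between enzymes. Kars, which charges lysine tRNAs for both compartments, read 10.26, 9.01 and 10.15 in ImHABCL6/Uchl1 replicates 1 to 3, against 10.26, 10.06 and 9.72 in ImHABCL6 arrays. Yars2, the mitochondrial tyrosine enzyme, read 8.04, 6.53 and 7.43 in ImHABCL6/Uchl1 cells, against 7.75, 7.43 and 7.38 in ImHABCL6 cells. For both genes the highest and the lowest of all 6 values came from the same genotype, ImHABCL6/Uchl1 replicates 1 and 2, which lay 2.37-fold apart for Kars and 2.85-fold apart for Yars2. Their mean differences of -0.21 (SE 0.32) and -0.19 (SE 0.34) were smaller than that spread, and they were 0.19 and 0.21 without replicate 2. Aars2, Vars2 and Pars2, mitochondrial enzymes for alanine, valine and proline, did not share the low value: in ImHABCL6/Uchl1 replicate 2 they lay 0.22, 0.12 and 0.05 above the mean of the other 5 arrays. Over the 6 arrays the Pearson correlation of a member with the mean of the others had a median of 0.85 and was over 0.8 for 20 members, from -0.43 for Vars2 to 0.98 for Aimp1. These points share arrays and normalization and rest partly on replicate 2, without which the median was 0.65.

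The mitochondrial enzymes had a median difference of -0.08, with 12 of 16 lower, and held the gene of smallest p. Nars2, the mitochondrial asparagine enzyme, read 7.64, 7.39 and 7.40 in ImHABCL6/Uchl1 arrays, against 7.94, 8.02 and 7.96 in ImHABCL6 arrays. The groups did not overlap, and the ImHABCL6 values lay close together. The mean was 7.48 ± 0.14 in ImHABCL6/Uchl1 cells and 7.97 ± 0.04 in ImHABCL6 cells (SD, n = 3 each), a log2 difference of -0.49 or 1.41-fold (SE 0.13). By limma this was p = 0.00556 before adjustment and 0.854 after it, and an exact two-sided permutation test gave p = 0.1, which is the lowest value possible for groups of 3. Unlike the family's median, the Nars2 difference was nearly as large without replicate 2, at -0.45. A further probe set for Nars2 was dim (3.14 to 3.55 over the 6 arrays) and differed by 0.03, so that averaging both gave -0.23.

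Cars2, which charges cysteine tRNAs in mitochondria, read 7.73, 7.31 and 7.13 in ImHABCL6/Uchl1 arrays, against 7.74, 7.58 and 7.56 in ImHABCL6 arrays. Transgenic replicate 1 lay among the ImHABCL6 values, so the groups overlapped (difference -0.24, SE 0.18, limma adjusted p = 0.998). The difference was -0.09 when all 3 probe sets were averaged. Pars2, the proline enzyme, read 7.14, 7.21 and 7.22 in ImHABCL6/Uchl1 arrays and 7.12, 7.38 and 6.95 in ImHABCL6 arrays, so that the transgenic values lay inside the range of the ImHABCL6 values. Rars2, for arginine, read 9.24, 8.74 and 9.13 in ImHABCL6/Uchl1 arrays and 9.20, 9.02 and 8.83 in ImHABCL6 arrays, with a difference of 0.03 (SE 0.18). The remaining lower genes were Tars2 (-0.24, threonine), Hars2 (-0.23, histidine), Mars2 (-0.21, methionine), Iars2 (-0.19, isoleucine), Yars2, Sars2 (-0.08, serine), Fars2 (-0.07, phenylalanine), Ears2 (-0.06, glutamate), Aars2 (-0.04) and Wars2 (-0.0030, tryptophan). Lars2, the leucine enzyme, and Vars2 differed by 0.0082 and 0.0042. Mars2 and Wars2 were the 2 members below the median level of all genes, and the values of such dim probe sets are the least certain.

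Free cytosolic enzymes had a median of -0.18, with 10 of 12 lower, beside 61.6% of the genes above the median level, where all 12 lie. The class held 3 of the 4 genes whose groups did not overlap, and 8.6% of the genes above that level were so separated downward. Cars, the cytosolic cysteine enzyme, read 7.76, 7.85 and 7.95 in ImHABCL6/Uchl1 arrays, against 8.08, 8.38 and 8.50 in ImHABCL6 arrays. It averaged 7.85 ± 0.09 in ImHABCL6/Uchl1 cells and 8.32 ± 0.22 in ImHABCL6 cells (SD, n = 3 each), a difference of -0.47 or 1.38-fold (SE 0.15, limma p = 0.015 unadjusted and 0.983 adjusted, exact permutation p = 0.1). The difference was also -0.47 without replicate 2. Its other probe set differed by -0.10 with overlapping groups, and the main one overlapped after quantile normalization.

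Hars, which charges histidine tRNAs, read 11.51, 11.47 and 11.73 in ImHABCL6/Uchl1 arrays, against 11.83, 11.80 and 11.97 in ImHABCL6 arrays. Every transgenic value was below every ImHABCL6 value, by a margin of 0.07 at the closest pair. Its second probe set (1417024_at) was separated too, at 9.83, 9.50 and 10.11 in ImHABCL6/Uchl1 arrays and 10.34, 10.18 and 10.20 in ImHABCL6 arrays. The differences were -0.30 (SE 0.13) and -0.43 (SE 0.17), with limma adjusted p of 0.998 over genes and 0.999 over probe sets.

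Aars, the alanine enzyme, read 10.39, 10.30 and 10.61 in ImHABCL6/Uchl1 arrays, against 10.69, 10.63 and 10.75 in ImHABCL6 arrays. Its second probe set (1423685_at) read 8.68, 7.98 and 8.70 in ImHABCL6/Uchl1 arrays and 9.06, 8.73 and 8.92 in ImHABCL6 arrays. Both probe sets separated the groups, by only 0.02 and 0.03 at the closest pair, and the main one overlapped after quantile normalization. The differences were -0.26 (SE 0.14) and -0.45 (SE 0.21), neither past the limma threshold (adjusted p = 0.998 and 0.999). Exact permutation tests of Hars and Aars each gave p = 0.1.

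**Figure D2:**
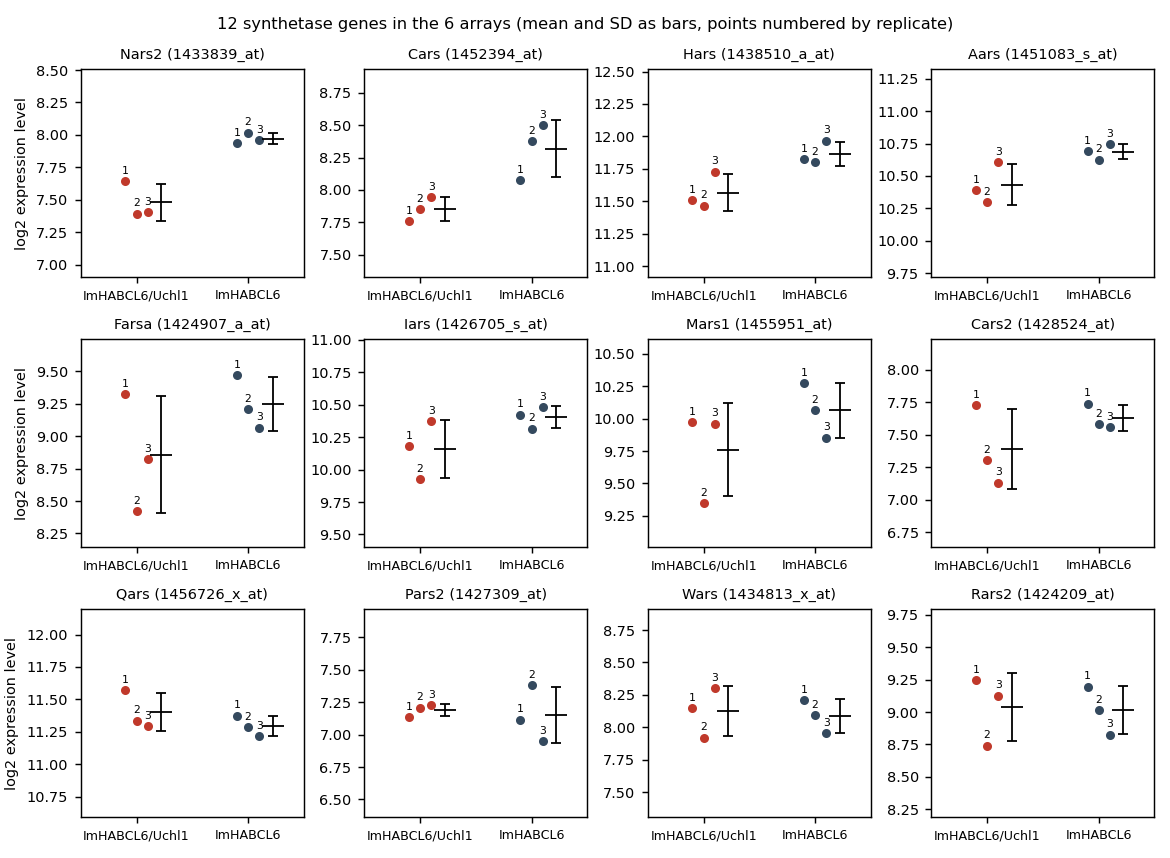
Log2 expression level (vertical axes, each spanning 1.6 units) of the 8 members of smallest p and the 4 higher members of smallest p, with a point per array numbered by replicate, and the mean and SD beside them, ImHABCL6/Uchl1 left and ImHABCL6 right. Nars2, Cars, Hars and Aars have no overlap between groups. In Mars1 the transgenic spread comes mostly from ImHABCL6/Uchl1 replicate 2, and in Farsa replicates 2 and 3 both lie below every ImHABCL6 value.

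Farsa and Farsb are the subunits of the cytosolic phenylalanine enzyme, and their mean differences were unlike. Farsa read 9.32, 8.42 and 8.82 in ImHABCL6/Uchl1 arrays, against 9.47, 9.21 and 9.07 in ImHABCL6 arrays. The transgenic arrays spanned more than the ImHABCL6 arrays and overlapped them through replicate 1 (difference -0.39, SE 0.23, limma adjusted p = 0.998). Farsb read 10.95, 10.23 and 10.66 in ImHABCL6/Uchl1 arrays, against 10.72, 10.55 and 10.57 in ImHABCL6 arrays, with a difference of 0.0026 (SE 0.19). Whether the subunits differ from each other was not tested. Wars, the tryptophan enzyme, which interferon gamma induces, read 8.15, 7.92 and 8.30 in ImHABCL6/Uchl1 arrays and 8.21, 8.09 and 7.95 in ImHABCL6 arrays. Its groups overlapped fully (difference 0.04, SE 0.15), and its 4 probe sets all lay between -0.03 and 0.04. The other free enzymes were Yars (-0.20, tyrosine), Gars (-0.20, glycine, also supplying mitochondria), Tars (-0.17, threonine), Sars (-0.16, serine), Nars (-0.16, asparagine) and Vars (-0.04, valine). Of these, Gars, Tars, Sars and Vars were higher in the transgenic mean once replicate 2 was left out, at 0.07, 0.09, 0.04 and 0.09.

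In the multi-synthetase complex 8 of 9 genes were lower, with a median of -0.17, and 0 separated the groups. Mars1, the methionine enzyme, read 9.97, 9.35 and 9.96 in ImHABCL6/Uchl1 arrays, against 10.28, 10.07 and 9.85 in ImHABCL6 arrays. Transgenic replicate 2 lay lowest and ImHABCL6 replicate 3 came next, so the groups overlapped (difference -0.30, SE 0.21, limma adjusted p = 0.998). Iars, the isoleucine enzyme, read 10.18, 9.93 and 10.38 in ImHABCL6/Uchl1 arrays, against 10.42, 10.32 and 10.48 in ImHABCL6 arrays. Its overlap was a single pair of arrays, and the difference was -0.25 (SE 0.15, limma adjusted p = 0.998). The scaffold Aimp2 read 9.04, 8.19 and 8.90 in ImHABCL6/Uchl1 arrays, against 9.09, 9.17 and 8.77 in ImHABCL6 arrays. The scaffold Aimp1 read 10.29, 9.48 and 10.04 in ImHABCL6/Uchl1 arrays, against 10.26, 10.16 and 9.88 in ImHABCL6 arrays. For both scaffolds replicate 2 alone of the transgenic arrays lay below the ImHABCL6 range, and the differences of -0.30 (SE 0.24) and -0.17 (SE 0.22) were -0.04 and 0.06 without it. Rars (-0.09, arginine), Eprs (-0.07, the joint glutamate and proline enzyme), Lars (-0.04, leucine) and Kars had the same low array and were higher in the transgenic mean without it, at 0.13, 0.18, 0.08 and 0.19.

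Qars, the glutamine enzyme, was the complex member that was higher. It read 11.57, 11.34 and 11.30 in ImHABCL6/Uchl1 arrays, against 11.38, 11.29 and 11.22 in ImHABCL6 arrays, a difference of 0.11 (SE 0.14) with overlapping groups. A dimmer probe set (1456213_x_at) separated the groups upward, at 9.41, 9.54 and 9.71 in ImHABCL6/Uchl1 arrays and 9.28, 9.26 and 9.05 in ImHABCL6 arrays (difference 0.36, SE 0.14, limma adjusted p = 0.995 over probe sets). The remaining 2 Qars probe sets differed by 0.02 and -0.14, and the direction of Qars therefore depends on the probe set. The last, the only lower one, is the one without a suffix. It was dim, with a mean of 4.84 against a median gene level of 6.32.

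**Figure D3:**
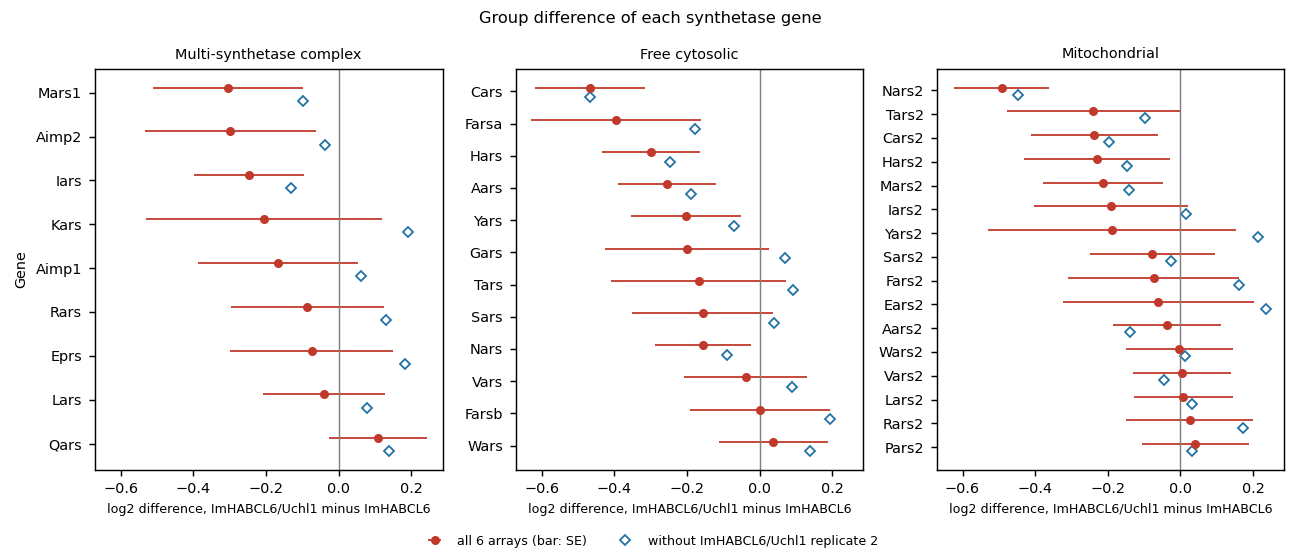
Log2 difference, ImHABCL6/Uchl1 minus ImHABCL6, of each member by class: filled points for all 6 arrays with the limma standard error as bars, open diamonds for the difference without ImHABCL6/Uchl1 replicate 2. Most bars reach or nearly reach 0, and the diamonds of Kars, Yars2, Ears2, Eprs and Fars2 lie on the other side of it, whereas those of Nars2 and Cars stay near -0.45 and -0.47.

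The 37 genes had 75 probe sets, and 24 genes had more than 1. Of the 38 probe sets not used above, 23 were lower and 15 higher, with a median of -0.03. Their groups did not overlap for 4 lower probe sets (Aars, Hars, Hars2 and Nars) and 1 higher (Qars), where 5.13% of the 34945 probe sets with 1 symbol were so separated downward and 4.4% upward. Over all these probe sets limma gave 0% with an adjusted p under 0.05, and the smallest adjusted p of a member probe set was 0.882. Hars2, the mitochondrial histidine enzyme, read 7.12, 6.87 and 6.73 on the second probe set (1449371_at) in ImHABCL6/Uchl1 arrays, against 7.23, 7.39 and 7.16 in ImHABCL6 arrays. The second Nars probe set (1428666_at) read 9.81, 9.24 and 9.79 in ImHABCL6/Uchl1 arrays, against 9.92, 9.98 and 10.01 in ImHABCL6 arrays. Both genes overlapped on their brighter probe set. The Farsa difference came from the brightest of its 4 probe sets, and the others differed by 0.13, 0.20 and -0.07.

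Genes that work beside the synthetases had their lowest mean in the same array, itself the lowest for 47.3% of genes above the median level. Of those measured, 18 of 19 lie above that level. Of the listed charging partners and delivery factors 19 were measured: 13 were lower (68.4%, beside 49.4% of all genes and 61.6% of those above the median level), the median difference was -0.15, and 0 had an unadjusted limma p under 0.05, beside 3.85% lower at that p among all genes. Their mean level was 9.37, 8.91 and 9.21 in ImHABCL6/Uchl1 replicates 1 to 3, against 9.34, 9.31 and 9.22 in ImHABCL6 arrays. Eef1e1, the elongation-factor-like subunit of the multi-synthetase complex, read 10.02, 9.20 and 10.16 in ImHABCL6/Uchl1 arrays, against 10.32, 10.37 and 10.14 in ImHABCL6 arrays (difference -0.48, SE 0.25). Tarsl2, a second cytosolic threonine enzyme outside the naming rule, read 7.83, 7.39 and 7.82 in ImHABCL6/Uchl1 arrays, against 7.94, 7.98 and 8.16 in ImHABCL6 arrays, without overlap (difference -0.35, SE 0.16). Gatc, a subunit of the enzyme that makes glutamine tRNA in mitochondria, also did not overlap, with a difference of -0.18 (SE 0.13). The limma adjusted p was 0.998 for each of the 3.

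Synthetases with a known ATF4 response (11 of the 37) were lower in 10 cases (90.9%), with a median of -0.20. The other 10 cytosolic members were lower in 8 cases (80%), with a median of -0.13. Lower by any amount were 49.4% of all genes and 61.6% of those above the median level. The 11 averaged 9.69, 9.28 and 9.79 in ImHABCL6/Uchl1 arrays, against 9.86, 9.74 and 9.75 in ImHABCL6 arrays, with transgenic replicate 3 among the ImHABCL6 arrays. Without ImHABCL6/Uchl1 replicate 2, Gars (0.07), Sars (0.04), Tars (0.09), Eprs (0.18) and Wars (0.14) were higher, and the rest of the 11 were lower. Among 24 other genes of the amino acid response, 16 were lower (66.7%, beside 49.4% of all genes and 61.6% of those above the median level). Of these, 5 had an unadjusted limma p under 0.05 and 4 did not overlap between groups, where 3.85% and 5.49% of all genes, and 6.6% and 8.6% of those above the median level, did so downward. Atf4 itself read 11.03, 11.13 and 10.95 in ImHABCL6/Uchl1 arrays, against 11.46, 11.35 and 11.48 in ImHABCL6 arrays (difference -0.39, SE 0.13), and here replicate 2 was the highest transgenic array. The CHOP gene Ddit3 (-0.67, SE 0.15) and the mitochondrial PEP carboxykinase Pck2 (-0.58, SE 0.15) also did not overlap, and the limma adjusted p was 0.854 for both and 0.983 for Atf4. Of 11 measured genes of the interferon gamma response, 7 were lower (63.6%, beside 49.4% of all genes and 61.6% of those above the median level). Their median was -0.10, and 3 had an unadjusted limma p under 0.05, beside 3.85% lower at that p among all genes. Irf9 (-0.66, SE 0.16, limma adjusted p = 0.854), Igtp (-1.46, SE 0.47) and Irgm1 (-0.81, SE 0.29, both with a limma adjusted p of 0.983) had the smallest p. The groups did not overlap for Irf9 and overlapped for Igtp and Irgm1. Wars differed by 0.04, and 4 of the 11 listed genes were higher as well: Irf1 (0.16), Tap1 (0.09), Gbp3 (0.08) and Psmb8 (0.02).

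**Figure D4:**
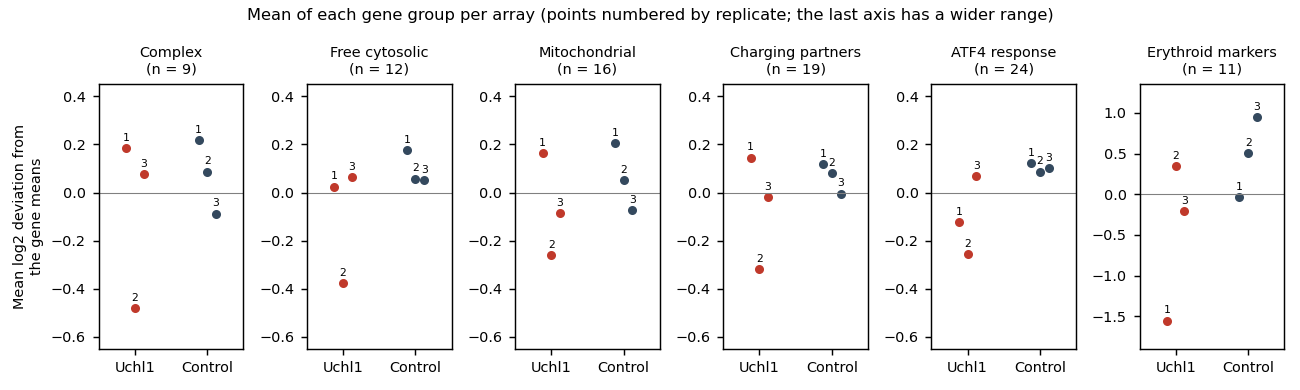
Mean log2 deviation from the gene means per array (points numbered by replicate) for the 3 synthetase classes, the charging partners, the other ATF4-response genes and the red-cell markers, ImHABCL6/Uchl1 left of ImHABCL6 (Control), with a wider axis for the last. ImHABCL6/Uchl1 replicate 2 is lowest in the first 5 panels, and in the red-cell panel replicate 1 is lowest.

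Promoter sequence was available in RefSeq for 28 of the 37 members (30 windows of 300 bases, 250 before and 50 after the start, build GRCm38.p6). The core of the C/EBP-ATF response element, to which ATF4 heterodimers bind, was searched on both strands as TGATGNAA, and the E-box CACGTG, bound by MYC and related factors, was searched likewise. The motifs can share letters, since CACGTG ends as TGATGNAA begins. TGATGNAA was found in 5 of 28 members (Aars, Gars, Iars, Tars and Yars), or 17.9%, beside 4.51% of the 27025 genes with such windows. All 5 belong to the 8 matched members with a known ATF4 response, and 0 of the 20 other members held it. CACGTG was found in 5 members (Aars, Ears2, Farsb, Iars and Tars), or 17.9%, beside 8.09% of all genes. The windows of Aars and Iars are shown because they are the ones with TGATGNAA among the 8 members of smallest p, as far as these had a window. Cars and Hars, also among these 8, had no window and were not searched. Nor were Nars and Wars, which like Cars have a known ATF4 response. Capitals mark the motif, which lies on the strand opposite to the gene and so reads TTGCATCA or TTTCATCA.
Aars promoter, chr8:111033592-111033891, plus strand: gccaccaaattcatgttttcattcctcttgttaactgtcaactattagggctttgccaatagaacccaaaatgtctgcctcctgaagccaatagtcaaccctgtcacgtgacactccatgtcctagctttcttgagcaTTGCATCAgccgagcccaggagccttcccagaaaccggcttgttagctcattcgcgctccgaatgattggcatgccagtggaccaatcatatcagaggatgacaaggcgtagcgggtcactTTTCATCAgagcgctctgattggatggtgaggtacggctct
Iars promoter, chr13:49681880-49682179, plus strand: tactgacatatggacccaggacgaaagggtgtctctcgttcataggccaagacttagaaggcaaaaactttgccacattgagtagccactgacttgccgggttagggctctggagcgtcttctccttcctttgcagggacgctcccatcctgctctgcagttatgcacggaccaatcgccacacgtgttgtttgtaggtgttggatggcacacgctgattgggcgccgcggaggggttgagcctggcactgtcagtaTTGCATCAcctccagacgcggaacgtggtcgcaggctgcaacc
In Aars the matches begin at -112 and 10 from the annotated start, and in Iars the match begins at 8, just inside the transcript. The E-box begins at -146 in Aars and at -69 in Iars. A match is only a run of letters in this window, and these members ranged in difference from -0.17 (Tars) to -0.26 (Aars), each with a limma adjusted p of 0.998.

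The red-cell signal differed between arrays, and taking it into the fit moved the synthetase values. With the mean of the 11 red-cell markers per array as a covariate, 35 of 37 members were lower, with a median of -0.37. Over all genes 53% were lower, with a median of -0.02. Of the members, 12 were lower at an unadjusted limma p under 0.05, beside 10.3% of all genes. That share was not computed for genes above the median level, where 35 of the 37 members lie. Nars2 was among the 12, whereas Cars, Hars and Aars were not. Their differences were -0.33, -0.26 and -0.25 with the covariate, against -0.47, -0.30 and -0.26 without it. Adjusted over all genes, 0 members passed in that fit, and the smallest adjusted p was 0.316. The array with the lowest red-cell mean, ImHABCL6/Uchl1 replicate 1, was the highest array for 11 synthetases. Without it 33 members were lower with a median of -0.24, beside 51.9% lower and a median of -0.01 over all genes. With 6 arrays and a covariate that itself differs between the groups, the part of red-cell RNA in these differences was not tested further.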

How the data were processed

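Total RNA of 6 samples was biotin-labelled with a 3' IVT kit and each sample was hybridised to an array of its own, per the labels' protocols. The authors deposited log2 expression values; RMA and Partek are the tools named, per the submitters' processing notes, without versions or settings. RMA removes background, normalizes between arrays and combines the probes of a set, which compresses differences of dim probe sets.

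Gene symbols came from GEO's annotation of the platform, checked by Entrez identifier against RefSeq (GRCm38.p6), which matched 18032 genes and changed 0 symbols. Probe sets with several symbols (932) were left unnamed. Each of 18193 genes was read by its brightest probe set, with no filter. The groups were tested with limma 3.58.1 (R 4.3.3), two-sided, p-values being adjusted across every gene by Benjamini-Hochberg, a threshold of 0.05 and no block; differences are ImHABCL6/Uchl1 minus ImHABCL6. Arrays are taken as separate mice, as the design text gives 3 mice per genotype. The named genes were the 8 members of smallest p, the 4 higher members of smallest p, and up to 3 genes of smallest p in each related list. The members and lists were chosen with earlier results of these data known. The fit was tested on simulated data with independent noise for each gene and array, which does not cover effects shared by the genes of an array. Same-numbered arrays had deviations correlated at 0.43, 0.19 and -0.26, so the numbers were not taken to pair mice. Figures were drawn with matplotlib 3.10.9.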

Additional observations from a re-analysis of the deposited data

How the results depend on the processing

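No member passed an adjusted p of 0.05 in limma under any of the 16 alternatives run, and no gene of the whole table did. Nars2, Cars, Hars, Aars, Iars, Mars1, Cars2, Yars, Aimp2, Nars and Hars2 were lower in all 16, Mars2 and Tars2 in the 15 that measured them, and the smallest adjusted p of any member was 0.149 (Nars2, array weights). The counts moved with the setting. Members higher numbered 7 with all arrays, 12 after quantile normalization, 3 with arrays centred on their medians, 15 with array weights and 2 with the erythroid covariate. In the same order, 49.4%, 47.6%, 57.3%, 51.4% and 53% of all genes were lower. Lower members at an unadjusted p under 0.05 numbered 2 with all arrays (3.85% of all genes), 1 with the mean of all probe sets (3.59%), 4 without suffixed probe sets (3.8%), 5 with array weights (9.88%) and 12 with the erythroid covariate (10.3%). Members without overlap downward numbered 2 after quantile normalization (5.07% of all genes), in place of 4 (5.49%). The covariate gave medians of -0.37 for all members and -0.41 for mitochondrial enzymes, where the median over all genes was -0.02. Array weights gave a median of -0.05 with 22 members lower, beside a median of -0.0066 over all genes. Leaving out 1 array at a time gave 17 to 36 members lower (46.4% to 54.3% of all genes) and 1 to 20 higher. The lowest of 17 came without ImHABCL6/Uchl1 replicate 2. In these fits 1 to 5 members were lower at an unadjusted limma p under 0.05 (1.59% to 5.43% of all genes). Groups did not overlap downward for 4 to 8 members (7.27% to 13.6%) and upward for 0 to 1 (6.74% to 10.8%). With the replicate block, 30 members were lower, 2 of them at an unadjusted p under 0.05, and the smallest adjusted p of a member was 0.541; it changed no call.

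The direction of 24 of the 37 members changed in at least 1 alternative, among them Farsa (-0.39 with all arrays and main probe sets), Kars and Gars. Averaging the probe sets of a gene gave 0.086 for Eprs, 0.048 for Ears2, -0.013 for Lars2, -0.029 for Vars2 and -0.012 for Farsb. Leaving out suffixed probe sets gave 0.13 for Farsa and -0.14 for Qars. Quantile normalization gave 0.0065 for Rars, 0.0081 for Eprs, 0.012 for Aars2, 0.054 for Lars and 0.046 for Vars. Centring arrays on their medians gave -0.0074 for Rars2, -0.025 for Lars2, -0.029 for Vars2 and -0.030 for Farsb. Cyclic loess gave 0.00056 for Lars and 0.0040 for Vars. Array weights gave 0.065 for Sars, 0.11 for Tars, 0.072 for Kars, 0.041 for Rars, 0.099 for Eprs, 0.069 for Fars2, 0.026 for Lars, 0.17 for Ears2, 0.067 for Vars and -0.068 for Lars2. The erythroid covariate gave -0.027 for Qars, -0.071 for Wars, -0.22 for Rars2, -0.12 for Lars2 and -0.29 for Farsb. Over the fits that left out 1 array, differences ran from -0.078 to 0.17 for Rars2, -0.074 to 0.067 for Lars2, -0.17 to 0.19 for Farsb, -0.34 to 0.015 for Iars2, -0.35 to 0.069 for Gars, -0.29 to 0.041 for Sars, -0.34 to 0.061 for Aimp1, -0.32 to 0.094 for Tars, -0.43 to 0.19 for Kars, -0.54 to 0.21 for Yars2, -0.21 to 0.13 for Rars, -0.24 to 0.18 for Eprs, -0.24 to 0.16 for Fars2, -0.13 to 0.078 for Lars, -0.22 to 0.24 for Ears2, -0.14 to 0.090 for Vars, -0.044 to 0.095 for Vars2, -0.079 to 0.095 for Wars2, -0.050 to 0.14 for Wars, -0.14 to 0.055 for Aars2, -0.22 to 0.0080 for Sars2 and -0.058 to 0.16 for Pars2. The number of arrays limits these values, and Mars2 and Wars2 lie below the median level of all genes.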
